A study of Mus musculus with 18 samples.

Results

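A set of 10 genes of bile acid synthesis, sensing and transport were followed in mouse liver across 3 states of the transcriptional coactivator YAP and 2 diets. The genes are Cyp7a1, Cyp8b1, Cyp27a1, Cyp7b1, Baat, Nr1h4, Nr0b2, Slc10a1, Abcb11 and Abcc3, taken by symbol from a panel that lists 23930 genes, and all 10 were present and passed the filter on low values. They were named for their roles and not for their levels in these libraries. The series holds 18 liver libraries in 6 groups of 3, and its title names YAP, ATF6 and stress of the endoplasmic reticulum in alcohol-fed liver. RNA was read with a targeted panel of 1 amplicon per gene, so levels are compared between libraries for a gene and not between genes.

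All 6 groups carried Yap fl/fl alleles, the controls included, and received an adeno-associated virus (AAV) at 8 weeks of age. Control mice received AAV-TBG-GFP, knockout mice AAV-TBG-Cre, which removes the floxed part of Yap, and overexpressing mice AAV-TBG-YAP-P2A-EGFP. TBG is a promoter active in hepatocytes, so other liver cells kept Yap in the knockout and gained no transgene in the overexpression groups. The Cre virus was given at 0.5 and the other viruses at 2, in units of 1e11 genome copies per mouse, so control and knockout mice differed in viral dose as well as in cargo. Feeding began 2 weeks later with 5 days of control liquid diet, followed by 4 weeks of Lieber-DeCarli ethanol diet or of control diet (pair-fed). Ethanol-fed mice then received 1 gavage of ethanol (5 g/kg, 33% v/v) and pair-fed mice maltose-dextrin, and livers were taken 9 hours later, so the effect of the diet and that of the gavage cannot be told apart. The labels number 3 replicates per group without saying that each is a separate animal and give no sex. The p-values therefore measure the spread between libraries, which may be technical.

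Bile acids are made from cholesterol in hepatocytes. In the classic route the 7α-hydroxylase CYP7A1 sets the rate and the 12α-hydroxylase CYP8B1 directs the product toward cholic acid, while the alternative route begins with the 27-hydroxylase CYP27A1 and uses the oxysterol 7α-hydroxylase CYP7B1. BAAT joins bile acids to taurine or glycine. The nuclear receptor FXR, encoded by Nr1h4, binds bile acids and raises the repressor SHP, encoded by Nr0b2, which lowers Cyp7a1 and Cyp8b1. NTCP (Slc10a1) takes conjugated bile acids up from blood, BSEP (Abcb11) exports them into bile, and MRP3 (Abcc3) exports them back toward blood.

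The level of a gene is its CPM, its reads scaled to a fixed library total that is the same for all 18 libraries. The libraries held 4.68 to 5.81 M reads (median 5.47 M), and 3 reads, the limit that a count of 0 allows, came to 0.517 to 0.641 CPM, for counting error only. Yap1 RNA was at 51.5 to 66.6 CPM in the 6 control libraries, 3.34 to 15.1 CPM in the 6 knockout libraries and 106 to 214 CPM in 5 of the 6 overexpression libraries. Replicate 1 of the pair-fed overexpression group lay inside the control range, at 57.6 CPM, and calls that ended on leaving it out are given with that value. Xist, transcribed from the inactive X chromosome, was above the Y-linked Ddx3y in 5 libraries, namely pair-fed control replicates 2 and 3 and all 3 pair-fed knockouts, and the other 13 libraries had Ddx3y above Xist. These are called libraries with Xist (348 to 423 CPM of it) and libraries with Ddx3y (0 to 2.75 CPM of Xist). No ethanol-fed or overexpression library had Xist above Ddx3y. In knockout liver, diet and sex chromosome pattern therefore changed together and cannot be told apart, and in control liver they overlapped in part. The 5 hepatocyte markers of the panel (Alb, Apoa1, Ttr, Apoc3 and Fgb) summed to 39460 to 48995 CPM in the 6 overexpression libraries and to 41224 to 79717 CPM in the other 12. The 10 cholangiocyte markers summed to 56.3 to 171 CPM, and the lymphocyte markers to 0 to 5.13 CPM. In whole liver, fewer cells of a type and less RNA per cell cannot be told apart.

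The promoter windows below belong to a repressor and an enzyme whose RNA moved with the diet, and to the export pump that holds the closest match to a bile acid receptor site. RefSeq promoters of GRCm38.p6 matched 6 of the 10 genes (Cyp8b1, Cyp27a1, Nr1h4, Nr0b2, Slc10a1 and Abcb11). Each window runs from 250 bases before to 50 bases after a start site, 5′ to 3′ on the strand of the gene, and capitals mark the motif matches. The windows are chr4:133553126-133553425 (plus strand) for Nr0b2, chr1:74713285-74713584 (plus strand) for Cyp27a1 and chr2:69342567-69342866 (minus strand) for Abcb11.
Nr0b2: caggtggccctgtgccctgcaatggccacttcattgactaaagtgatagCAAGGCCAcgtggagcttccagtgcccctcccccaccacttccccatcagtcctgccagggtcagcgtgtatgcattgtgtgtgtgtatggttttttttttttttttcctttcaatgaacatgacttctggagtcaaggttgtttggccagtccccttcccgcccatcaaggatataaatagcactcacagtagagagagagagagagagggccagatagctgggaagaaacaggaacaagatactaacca
Cyp27a1: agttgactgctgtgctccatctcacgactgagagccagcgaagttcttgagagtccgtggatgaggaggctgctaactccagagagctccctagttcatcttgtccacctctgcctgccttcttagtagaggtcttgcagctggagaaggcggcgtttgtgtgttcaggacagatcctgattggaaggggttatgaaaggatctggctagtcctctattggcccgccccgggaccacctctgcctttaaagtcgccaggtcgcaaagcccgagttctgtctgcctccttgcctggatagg
Abcb11: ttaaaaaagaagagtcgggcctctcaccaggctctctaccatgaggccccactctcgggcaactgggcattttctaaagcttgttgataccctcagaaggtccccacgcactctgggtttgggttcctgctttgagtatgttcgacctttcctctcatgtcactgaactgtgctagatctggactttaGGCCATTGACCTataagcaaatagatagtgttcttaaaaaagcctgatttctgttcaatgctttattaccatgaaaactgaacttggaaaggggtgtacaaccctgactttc

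A set of 5 motifs was searched on both strands. The inverted repeat of the nuclear receptor half-site, AGGTCANTGACCT, was found in none of the windows of the 6 genes and in 0.00913% of 32851 promoter windows. A looser form, GGNCANTGNCC, was found in 0.676% of all windows and, among the 6 genes, in that of Abcb11, 62 bases before the start, where it overlaps a half-site on the other strand. The half-site AGGTCA itself was found in 16.3% of all windows and in those of Abcb11, Nr1h4 and the second start of Slc10a1. Of the sites known for the receptor LRH-1 (Nr5a2), CAAGGTCA, which contains the half-site, was found in 1.56% of all windows and in none of the 6 genes. Its variant CAAGGCCA was found in 2.40% of all windows and in that of Nr0b2, 201 bases before the start. No motif of the 5 was in the Cyp27a1 window.

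Changes are log2 differences ± SE of limma, computed on log2(CPM + 1) values, where the added 1 shrinks the changes of genes at a few CPM, and rose or fell is written where the Benjamini-Hochberg adjusted p over 11720 genes was under 0.05. Cyp7a1 was lower in ethanol-fed than in pair-fed liver on average over the genotypes. Its level was 438, 201 and 264 CPM in the 3 pair-fed controls and 98.2, 57.4 and 33.8 CPM in the ethanol-fed controls. The control groups did not overlap, and the lowest pair-fed library held more than 2 times the highest ethanol-fed one. The knockout libraries had 51.9, 161 and 311 CPM pair-fed and 172, 99.5 and 14.7 CPM ethanol-fed. The overexpression libraries had 103, 62.1 and 303 CPM pair-fed and 95.9, 131 and 81.1 CPM ethanol-fed. In both of these genotypes the diets overlapped, and the replicates of 3 of these 4 groups differed by over 4 times, those of ethanol-fed overexpression liver by less. The log2 change with ethanol was -2.29 ± 0.73 in control (adjusted p = 0.0973), -1.10 ± 0.73 in knockout (adjusted p = 0.356) and -0.31 ± 0.73 in overexpression liver (adjusted p = 0.899). Averaged over the genotypes it was -1.23 ± 0.42, just past the threshold (adjusted p = 0.0440). That call was lost on leaving out any of 12 libraries, with adjusted p from 0.0542 to 0.0968. They were pair-fed control replicates 1 and 3, ethanol-fed control 2 and 3, pair-fed knockout 2 and 3, ethanol-fed knockout 3, pair-fed overexpression 1 and 3, and the 3 ethanol-fed overexpression libraries.

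Cyp8b1, the other enzyme of the classic route, changed with neither diet nor genotype at the threshold. It was at 273, 236 and 123 CPM in pair-fed and 118, 135 and 191 CPM in ethanol-fed controls. Pair-fed knockouts had 56.0, 78.2 and 110.3 CPM, each below the lowest pair-fed control, and ethanol-fed knockouts 173, 78.9 and 91.7 CPM. The overexpression libraries had 145, 248 and 383 CPM pair-fed and 391, 302 and 101 CPM ethanol-fed, and so spanned most of the range of the series. The largest difference was that of pair-fed knockout against pair-fed control, -1.34 ± 0.45 (adjusted p = 0.999, unadjusted p = 0.00762, 95% interval -2.27 to -0.40). Averaged over the genotypes the change with ethanol was -0.02 ± 0.26.

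Cyp27a1, which opens the alternative route, fell with ethanol in overexpression liver. Its level there went from 133, 127 and 149 CPM pair-fed to 87.6, 82.0 and 65.6 CPM ethanol-fed, and these last 3 libraries were the lowest of all 18. The controls had 164, 146 and 123 CPM pair-fed and 124, 120.1 and 101 CPM ethanol-fed. The knockouts had 90.9, 154 and 118 CPM pair-fed and 110.3, 102 and 108 CPM ethanol-fed, with the pair-fed libraries on both sides of the ethanol-fed ones. The change was -0.80 ± 0.18 in overexpression liver (adjusted p = 0.0396), -0.32 ± 0.18 in control (adjusted p = 0.366) and -0.15 ± 0.18 in knockout liver (adjusted p = 0.655). Averaged over the genotypes Cyp27a1 fell by 0.42 ± 0.11 on the log2 scale (adjusted p = 0.00850). The call in overexpression liver was lost on leaving out any of its libraries other than ethanol-fed replicate 1, with adjusted p from 0.0718 to 0.192. Without pair-fed replicate 1, the library with Yap1 in the control range, the change was -0.81 ± 0.21 (adjusted p = 0.110). The averaged call held at each of the 18 omissions, between -0.48 and -0.36.

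Cyp7b1, the next enzyme of that route, rose with ethanol in knockout liver and did not in the other genotypes. Knockout libraries went from 20.2, 16.0 and 33.4 CPM pair-fed to 66.1, 58.8 and 62.7 CPM ethanol-fed, with no overlap. The change of 1.46 ± 0.36 (adjusted p = 0.0160) was the only rise past the threshold among the 10 genes. It lost the call without pair-fed knockout replicate 2 (adjusted p = 0.0824) or ethanol-fed knockout replicate 1 (adjusted p = 0.0571). Controls had 95.6, 25.7 and 58.1 CPM pair-fed and 36.7, 41.1 and 39.4 CPM ethanol-fed, and overexpression libraries 93.5, 50.1 and 124 CPM pair-fed and 56.7, 51.0 and 42.5 CPM ethanol-fed. The ethanol-fed libraries of each genotype lay close together, while the pair-fed ones spread over 16.0 to 124 CPM. The pair-fed knockouts, the 3 libraries at the low end of that contrast, all had Xist, and none of the ethanol-fed knockouts did. The 7 Kupffer cell markers also moved in this contrast, from sums of 422 to 514 CPM to 149 to 189 CPM, and their part in the changes of knockout liver was not tested.

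Baat, the conjugating enzyme, passed the threshold in no comparison. It was at 405, 238 and 297 CPM in pair-fed and 224, 391 and 422 CPM in ethanol-fed controls, and at 215, 208 and 296 CPM in pair-fed and 437, 407 and 291 CPM in ethanol-fed knockouts. The overexpression libraries had 466, 454 and 522 CPM pair-fed and 434, 395 and 564 CPM ethanol-fed. The pair-fed overexpression libraries all lay above the pair-fed controls, a difference of 0.65 ± 0.25 (adjusted p = 0.448) that was 0.67 ± 0.28 without pair-fed overexpression replicate 1 (adjusted p = 0.614). The pair-fed controls below them include the 2 with Xist, and among libraries with Ddx3y, which leave 1 pair-fed control whose spread has to be taken from the remaining groups, the difference was 0.24 ± 0.33 (adjusted p = 0.989). The change with ethanol in knockout liver was of like size, 0.65 ± 0.25 (adjusted p = 0.0967).

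**Figure D1:**
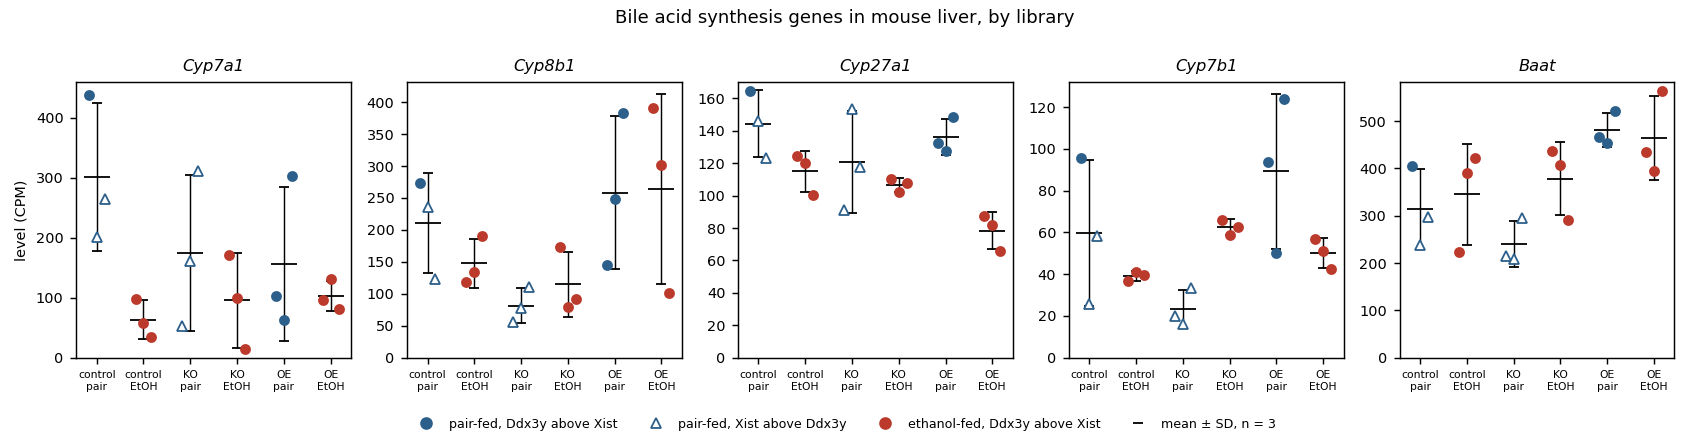
Levels of the 5 synthesis genes in CPM on linear axes from 0, by group, with 1 point per library and bars at the mean ± SD of 3 libraries; triangles mark the 5 libraries with Xist above Ddx3y. Cyp27a1 is lowest in the 3 ethanol-fed overexpression libraries (65.6 to 87.6 CPM). Cyp7b1 is lowest in the pair-fed knockouts and pair-fed control replicate 2 (16.0 to 33.4 CPM), all with Xist. Pair-fed control replicate 3, also with Xist, is at 58.1 CPM, above all ethanol-fed control and overexpression libraries.

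The plot of synthesis genes shows that Cyp7a1, Cyp8b1 and Cyp7b1 had wide pair-fed groups and that Cyp27a1 had a narrow one. Over the 18 libraries the highest level was 29.8 times the lowest for Cyp7a1, 6.99 times for Cyp8b1 and 7.75 times for Cyp7b1, against 2.5 times for Cyp27a1. Cyp7a1 follows the hour of the day and feeding, and the labels give neither for these livers beyond the 9 hours after gavage.

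Nr1h4, the gene of the receptor FXR, had group means within a narrow range. Single libraries ran from 27.0 to 68.1 CPM, with both extremes in ethanol-fed knockout liver. Group means ran from 38.7 ± 4.63 CPM in ethanol-fed overexpression to 50.9 ± 11.4 CPM in pair-fed knockout liver (SD, n = 3), and no pair of groups was separate. The averaged change with ethanol was -0.04 ± 0.16, with a 95% interval of -0.37 to 0.30.

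Nr0b2, the gene of the repressor SHP and a target of FXR, fell with ethanol in knockout liver and on average. Its level in knockouts went from 50.6, 22.6 and 12.5 CPM pair-fed to 4.21, 4.27 and 5.44 CPM ethanol-fed, with no overlap (-2.18 ± 0.50, adjusted p = 0.0104). Controls went from 5.43, 13.5 and 22.8 CPM to 1.78, 4.83 and 2.26 CPM, again with no overlap (-1.80 ± 0.50, adjusted p = 0.0611). Overexpression libraries had 22.2, 14.8 and 12.5 CPM pair-fed and 17.5, 7.0 and 4.65 CPM ethanol-fed, where replicate 1 of the ethanol-fed group overlapped the pair-fed ones (-0.85 ± 0.50, adjusted p = 0.469). Averaged over the genotypes Nr0b2 fell by 1.61 ± 0.29 (adjusted p = 0.000841), and the call held at each of the 18 omissions (-1.78 to -1.44). At each omission the libraries with Xist were still all pair-fed. With a term for the sex chromosome pattern added to the group means, the averaged change was -0.76 ± 0.46 and that in knockout liver -0.65 ± 0.82. Only the pair-fed control group holds both patterns, so that term rests on its replicate 1 against replicates 2 and 3. Both values carry the difference within that group over to the knockouts. In control liver the change passed the threshold without pair-fed control replicate 1 (-2.31, adjusted p = 0.0232), which leaves pair-fed controls with Xist alone. Among libraries with Ddx3y, where replicate 1 is the only pair-fed control, it was -0.78 ± 0.56 (adjusted p = 0.645). These levels rest on 10 to 271 reads per library. Nr0b2 and its textbook target Cyp7a1 were both lower in ethanol-fed than in pair-fed control libraries, neither past the threshold. A link between them was not tested.

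The transporters passed the threshold in no comparison, and their groups overlapped in most. Slc10a1, the uptake carrier, was at 716, 1183 and 1358 CPM in pair-fed and 1477, 1028 and 1026 CPM in ethanol-fed controls. It was at 1295, 1117 and 1137 CPM in pair-fed and 863, 877 and 582 CPM in ethanol-fed knockouts, which did not overlap (-0.63 ± 0.26, adjusted p = 0.121). Overexpression libraries had 811, 495 and 871 CPM pair-fed and 970.3, 783 and 973 CPM ethanol-fed. Both ethanol-fed groups with altered YAP lay below the ethanol-fed controls, by -0.61 ± 0.26 in knockout (adjusted p = 0.551) and -0.36 ± 0.26 in overexpression liver (adjusted p = 0.787).

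Abcb11, the canalicular export pump, was at 497, 608 and 359.5 CPM in pair-fed and 392, 554 and 507 CPM in ethanol-fed controls. Knockouts had 670.1, 384 and 496 CPM pair-fed and 555, 562 and 577 CPM ethanol-fed. The overexpression groups did not overlap, at 572, 683 and 518 CPM pair-fed and 386, 471 and 363 CPM ethanol-fed (-0.54 ± 0.22, adjusted p = 0.250). Among ethanol-fed libraries, those with overexpression also lay below all 3 knockouts (-0.48 ± 0.22, adjusted p = 0.289).

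Abcc3, the basolateral exporter, was at 252, 121 and 188 CPM in pair-fed and 187, 569 and 515 CPM in ethanol-fed controls, where ethanol-fed replicate 1 stood apart from the other 2 libraries. The change was 1.08 ± 0.35 (adjusted p = 0.106), and without that library it was 1.59 (adjusted p = 0.0112). Knockouts had 102, 193 and 181 CPM pair-fed and 236, 207 and 333 CPM ethanol-fed, with no overlap (0.73 ± 0.35, adjusted p = 0.198). Overexpression libraries had 373, 453 and 361 CPM pair-fed, all above the pair-fed controls (1.13 ± 0.35, adjusted p = 0.303), and 326, 460.1 and 303 CPM ethanol-fed. Without pair-fed overexpression replicate 1 that difference from control was 1.17 ± 0.41 (adjusted p = 0.453), and among libraries with Ddx3y, with 1 pair-fed control left, it was 0.64 ± 0.47 (adjusted p = 0.974).

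**Figure D2:**
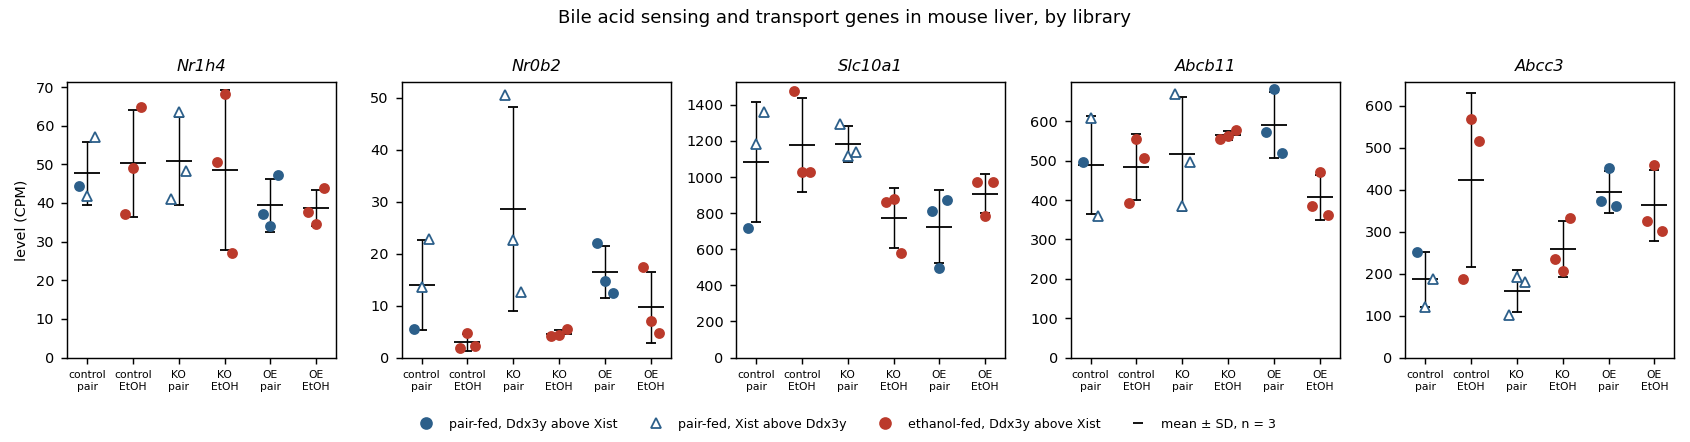
Levels of the bile acid receptor gene, the repressor gene and the 3 transporter genes in CPM on linear axes from 0, by group, with 1 point per library and bars at the mean ± SD of 3 libraries; triangles mark the 5 libraries with Xist above Ddx3y. Nr0b2 lies at 1.78 to 5.44 CPM in the 6 ethanol-fed control and knockout libraries, and Abcc3 is low in the pair-fed libraries with Xist (102 to 193 CPM).

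The plot of sensing and transport genes shows Nr0b2 at the base of its axis in ethanol-fed control and knockout liver, and Nr1h4 at like mean levels in all 6 groups.

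Read by comparison, ethanol moved few of the 10 genes past the threshold, and YAP state moved none. In control liver 0 of the 10 passed in limma and in edgeR on recovered reads, against 2.70% of all genes tested by limma. An unadjusted limma p under 0.05 was reached by 3 of 10 (18.1% of all genes), and the diets did not overlap for 2 of 10 (22.1% of all genes). In knockout liver 2 of 10 passed, Cyp7b1 higher and Nr0b2 lower, against 9.90% of all genes, with 4 of 10 at an unadjusted p under 0.05 (26.1%) and 4 of 10 without overlap (28.5%). In overexpression liver 1 of 10 passed, Cyp27a1, against 1.15%, and 0 of 10 with edgeR (adjusted p of Cyp27a1 = 0.0972), TMM factors (0.0889) or quantile normalization (0.0766). There limma had 2 of 10 at an unadjusted p under 0.05 (14.5%) and 2 of 10 without overlap (22.4%). Averaged over the genotypes 3 of 10 passed, Nr0b2, Cyp27a1 and Cyp7a1, all lower, against 20.5%. There 4 of 10 had an unadjusted p under 0.05 (34.8%) and 0 of 10 were without overlap between all 9 libraries of each diet (1.53%). The averaged share of called genes lies near that of all genes. The median change of the 10 genes was -0.16 in control, 0.01 in knockout and -0.23 in overexpression liver, beside -0.09, -0.05 and -0.07 over all genes.

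Knockout against control gave 0 of 10 calls in pair-fed liver, where 0.00853% of all genes passed in limma. There 2 of 10 had an unadjusted p under 0.05 (3.13% of all genes), Cyp8b1 and Cyp7b1, both lower, and Cyp8b1 alone was without overlap (7.06%). These groups also differ in Xist, which all 3 knockouts and 2 of the 3 controls had above Ddx3y. In ethanol-fed liver 0 of 10 passed, against 0.0171%, with 1 of 10 at an unadjusted p under 0.05 (8.34%), and 3 of 10 did not overlap (13.4%). Those were Slc10a1, lower in knockout, and Cyp7b1 (0.67 ± 0.36, adjusted p = 0.659) and Abcb11 (0.24 ± 0.22, adjusted p = 0.826), above the controls in each library. For Abcb11 the groups were barely apart, with 554.958 CPM in the lowest knockout and 554.455 CPM in the highest control library.

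Overexpression against control gave 0 of 10 calls in pair-fed liver, against 0.145% of all genes, with 3 of 10 at an unadjusted limma p under 0.05 (8.46%) and 2 of 10 without overlap (13.8%). In ethanol-fed liver 0 of 10 passed, against 0.102%, with 2 of 10 at an unadjusted p under 0.05 (8.84%) and 3 of 10 without overlap (15.0%). Cyp27a1 was lower there in all 3 overexpression libraries than in all 3 controls (-0.55 ± 0.18, adjusted p = 0.297, 95% interval -0.93 to -0.17). Nr0b2 was 1.33 ± 0.50 higher in those libraries (adjusted p = 0.393), with overlap.

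Overexpression against knockout, both ethanol-fed and all with Ddx3y above Xist, gave 0 of 10 calls where 1.88% of all genes passed, with 3 of 10 at an unadjusted limma p under 0.05 (15.4%) and 3 of 10 without overlap (21.4%). Cyp8b1 differed by 1.08 ± 0.45 (adjusted p = 0.246) and Cyp27a1 by -0.45 ± 0.18 (adjusted p = 0.235). The interactions of ethanol with knockout and with overexpression called 0 of 10 and 0% of all genes by limma, and 0 genes by edgeR. Unadjusted limma p-values were under 0.05 for 2 of 10 with knockout (5.68% of all genes) and 1 of 10 with overexpression (7.23%). The interaction with knockout was 1.87 ± 0.51 for Cyp7b1 (adjusted p = 0.761), and that with overexpression was -1.23 ± 0.50 for Abcc3 (adjusted p = 0.598). For each comparison of YAP states and each of these interactions the count of calls stayed at 0 in every alternative that was run.

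**Figure D3:**
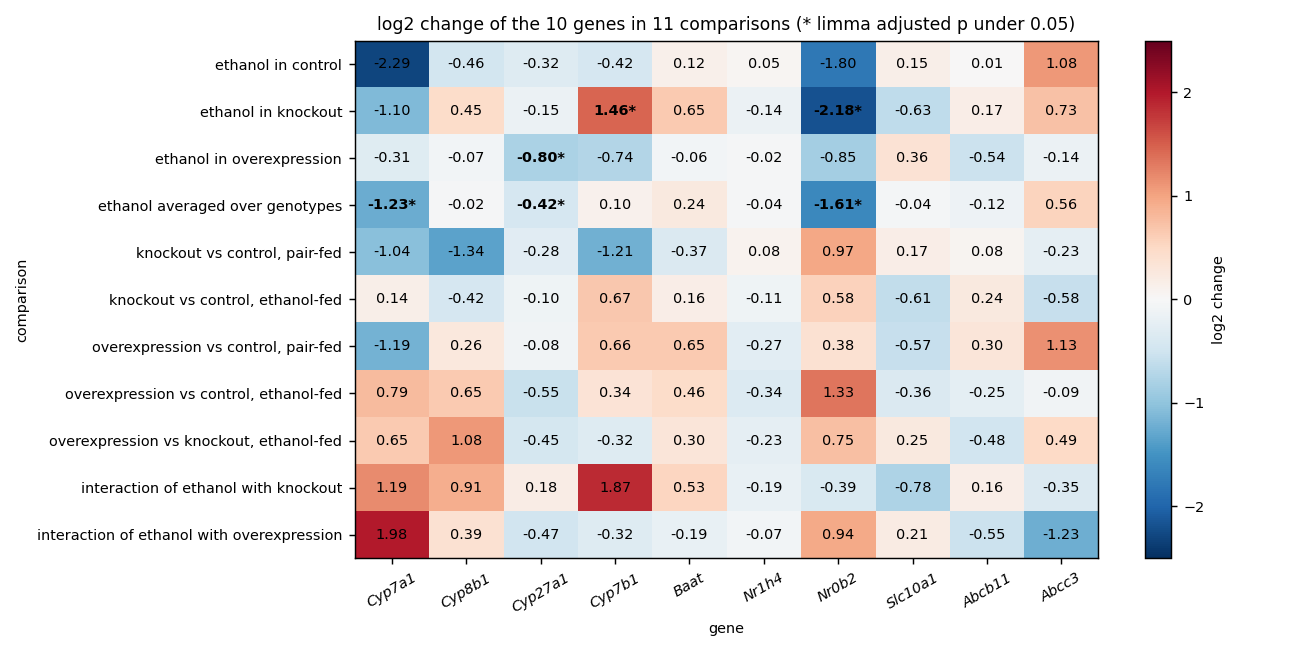
Grid of log2 changes of the 10 genes (columns) in the 11 comparisons (rows), with colour from blue for lower to red for higher and an asterisk where the limma adjusted p was under 0.05. The 6 asterisks lie in ethanol comparisons, 3 of them in the row averaged over genotypes.

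The grid of changes shows the calls for Cyp7b1 and Nr0b2 in knockout liver, for Cyp27a1 in overexpression liver and for Cyp7a1, Cyp27a1 and Nr0b2 on average. Its rows share libraries: each control group enters several of them.

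Within the pair-fed libraries alone, 3 of the 10 genes did not overlap between libraries with Xist and libraries with Ddx3y, against 8.17% of all genes. The 5 pair-fed libraries with Xist had 208 to 297 CPM of Baat, and the 4 with Ddx3y had 405 to 522 CPM. Abcc3 was at 102 to 193 CPM against 252 to 453 CPM, and Slc10a1 at 1117 to 1358 CPM against 495 to 871 CPM. Cyp7b1 (16.0 to 58.1 against 50.1 to 124 CPM) overlapped by a single pair of libraries. These libraries also differ in YAP state, since 3 of the 5 with Xist are knockouts and 3 of the 4 with Ddx3y overexpress YAP. In a fit with diet, genotype and the sex chromosome pattern as terms, Cyp7b1 was lower with Xist (-1.64 ± 0.38, adjusted p = 0.0403), the only one of the 10 past the threshold, which 0.879% of all genes passed. Without pair-fed overexpression replicate 1 it was -1.61 ± 0.40 (adjusted p = 0.0822). That fit has no interactions, and all pair-fed knockouts but no ethanol-fed ones had Xist. Its term for the pattern therefore cannot be told apart from an ethanol response that differs in knockout liver. The estimates of that term were -0.89 ± 0.35 for Abcc3, -0.63 ± 0.23 for Baat, -0.49 ± 0.18 for Cyp27a1, 0.86 ± 0.23 for Slc10a1 and 1.43 ± 0.44 for Nr0b2. They were -0.51 ± 0.45 for Cyp8b1, -0.43 ± 0.23 for Abcb11, 0.17 ± 0.79 for Cyp7a1 and 0.11 ± 0.27 for Nr1h4.

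In that fit, which has no interactions, 1 of the 10 genes changed with ethanol, against 3.25% of all genes: Cyp27a1 fell by 0.69 ± 0.14 (adjusted p = 0.0120). Nr0b2 was then at -0.82 ± 0.35 (adjusted p = 0.221), Cyp7a1 at -1.14 ± 0.63 (adjusted p = 0.359), Cyp7b1 at -0.81 ± 0.30 (adjusted p = 0.143) and Abcc3 at 0.06 ± 0.28 (adjusted p = 0.943). A second fit used only control and overexpression libraries with Ddx3y, 4 pair-fed against 6 ethanol-fed, and 3.03% of 11192 genes passed there. Cyp27a1 fell by 0.70 ± 0.14 (adjusted p = 0.0141) and Cyp7b1 fell by 0.91 ± 0.22 (adjusted p = 0.0402), the opposite direction to its rise in knockout liver. Without pair-fed overexpression replicate 1 Cyp7b1 was at -0.89 ± 0.25 in this fit (adjusted p = 0.0990), and Cyp27a1 at -0.70 ± 0.15 (adjusted p = 0.0493). Nr0b2 was at -0.83 ± 0.33 (adjusted p = 0.187) and Cyp7a1 at -1.17 ± 0.50 (adjusted p = 0.219). Cyp27a1 was at 127 to 164 CPM in those 4 pair-fed libraries and at 65.6 to 124 CPM in the 6 ethanol-fed ones, with no overlap. Added to the 6 group means, the term rests on pair-fed control replicate 1 against replicates 2 and 3, the only group with both patterns. The averaged change of Cyp27a1 was then -0.58 ± 0.19. The change in knockout liver was 0.18 ± 0.56 for Cyp7b1 and -0.65 ± 0.82 for Nr0b2. That of Cyp27a1 in overexpression liver, where all libraries had Ddx3y above Xist, was -0.80 ± 0.18 (adjusted p = 0.0373).

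**Figure D4:**
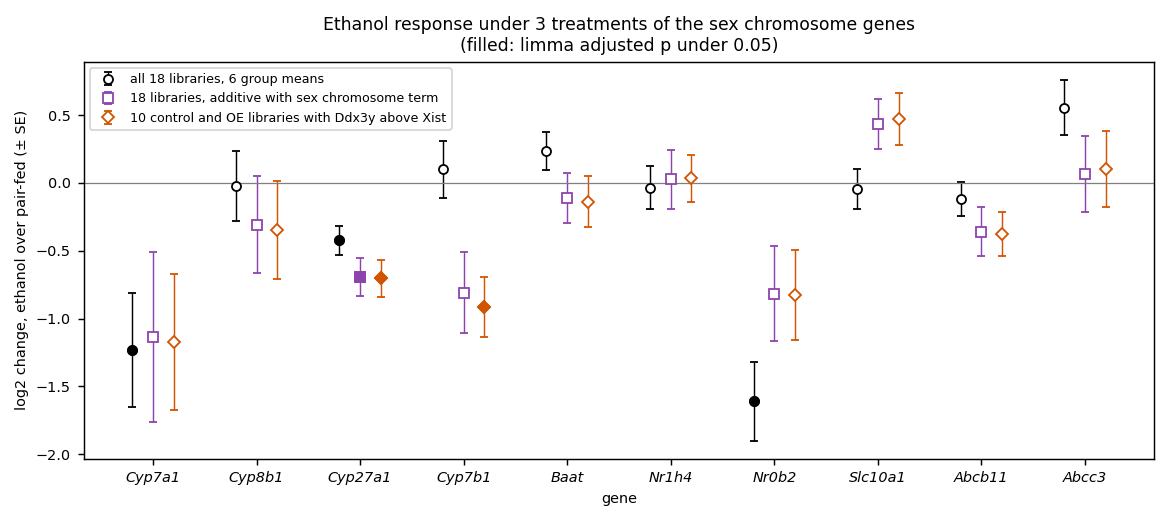
Log2 change with ethanol ± SE for the 10 genes in 3 fits: 6 group means over 18 libraries (circles), a fit with terms for diet, genotype and sex chromosome pattern (squares), and 10 control and overexpression libraries with Ddx3y above Xist (diamonds); filled symbols have a limma adjusted p under 0.05. Cyp27a1 is filled in all 3 fits, Nr0b2 and Cyp7a1 in the first alone, and Cyp7b1 in the third alone.

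The ethanol response of Cyp7b1 in overexpression liver minus that in knockout liver was -2.19 ± 0.51 (adjusted p = 0.0441), the only one of the 10 such differences past the threshold, which 1.05% of all genes passed. Without pair-fed overexpression replicate 1 it was -2.11 ± 0.56 (adjusted p = 0.105). With the sex chromosome term added to the group means it was -0.91 ± 0.65. There the term rests on pair-fed control replicate 1 against replicates 2 and 3.

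The plot of the 3 fits shows that the estimate for Cyp7a1 barely moved while its error grew. Those for Cyp7b1, Nr0b2, Slc10a1, Abcc3 and Cyp27a1 differed between the first fit and the others, and Nr0b2 was past the threshold in the first fit alone. The third fit also leaves out all knockout libraries, so its differences cannot be credited to the sex chromosome pattern alone.

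The other genes of the pathway were described from lists of known members. Of 12 other synthesis genes tested, 2 rose and 3 fell with ethanol on average, where 20.5% of all genes changed. Acox2, a peroxisomal oxidase that shortens the side chain, went from 298 ± 125 to 483 ± 98.7 CPM (0.79 ± 0.16, adjusted p = 0.00195), and Cyp2c70, which makes muricholic acids in mice, from 507 ± 102 to 921 ± 380.2 CPM (0.78 ± 0.16, adjusted p = 0.00257). Abcd3, a peroxisomal transporter of bile acid precursors, went from 922 ± 114 to 611 ± 113 CPM (-0.60 ± 0.12, adjusted p = 0.00177). Values here are the mean ± SD over the 9 libraries of a diet. For these other pathway genes, here and below, the sex chromosome term is that of the fit without interactions, chosen after seeing the data. With the sex chromosome term Cyp2c70 (1.12 ± 0.25, adjusted p = 0.0169) and Abcd3 (-0.61 ± 0.16, adjusted p = 0.0479) stayed past the threshold and Acox2 did not (0.27 ± 0.20, adjusted p = 0.526). Without pair-fed overexpression replicate 1 the value of Abcd3 was -0.62 ± 0.18 (adjusted p = 0.0902). Cyp39a1, an oxysterol 7α-hydroxylase, then passed (1.28 ± 0.24, adjusted p = 0.00607). In overexpression liver Cyp39a1 was at 50.2, 30.8 and 29.9 CPM pair-fed and 121, 82.9 and 87.5 CPM ethanol-fed, and Cyp2c70 rose there from 394 ± 34.8 to 980.1 ± 309.9 CPM (1.27 ± 0.28, adjusted p = 0.0346), a call lost without pair-fed replicate 1 (1.29 ± 0.33, adjusted p = 0.0967). The median of the 12 averaged changes was -0.19, beside -0.07 over all genes.

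Of 13 other transport genes, 2 rose and 5 fell on average, against the same 20.5% of all genes. Abcc4, which encodes the basolateral exporter MRP4, was at 5.33 ± 4.11 CPM pair-fed and 17.7 ± 13.9 CPM ethanol-fed (1.44 ± 0.31, adjusted p = 0.00332), and it stayed past the threshold with the sex chromosome term (1.55 ± 0.42, adjusted p = 0.0495), though not without pair-fed overexpression replicate 1 (1.65 ± 0.46, adjusted p = 0.0773). Ephx1, microsomal epoxide hydrolase, went from 816 ± 466 to 1375 ± 385 CPM (0.88 ± 0.19, adjusted p = 0.00260), but was at 0.11 ± 0.23 with that term. Abcc6 (-0.42 ± 0.09, adjusted p = 0.00279) and Abcb1a (-0.81 ± 0.22, adjusted p = 0.0152) fell on average, and neither passed with the term (adjusted p = 0.229 and 0.981). The median of the 13 was -0.33.

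Of 18 other regulators, 0 rose and 5 fell on average, where 20.5% of all genes changed. Mafg, which encodes a small MAF repressor of bile acid synthesis genes, was at 61.4, 51.6 and 49.3 CPM in pair-fed controls and 23.2, 24.3 and 28.6 CPM in ethanol-fed controls. It was at 56.9, 41.2 and 31.7 against 21.2, 24.5 and 25.7 CPM in knockout and at 32.8, 47.1 and 52.8 against 34.3, 26.2 and 21.0 CPM in overexpression liver. The diets were separate in the first 2 genotypes and overlapped in the third. Mafg fell by 0.85 ± 0.13 on average (adjusted p = 0.000287) and by 0.87 ± 0.19 with the sex chromosome term (adjusted p = 0.0148). Nr1i2, which encodes the xenobiotic and bile acid sensor PXR, fell by 0.57 ± 0.12 on average (adjusted p = 0.00243). In overexpression liver it fell from 81.6, 93.2 and 79.4 to 55.3, 41.3 and 40.1 CPM (-0.89 ± 0.20, adjusted p = 0.0395), a call lost without pair-fed replicate 1 (-0.92 ± 0.24, adjusted p = 0.104). Among ethanol-fed livers it was lower with overexpression than with knockout (-1.11 ± 0.20, adjusted p = 0.00899). Nr1h3, the gene of the oxysterol receptor LXRα, fell by 0.50 ± 0.15 (adjusted p = 0.0218) and Klb, the co-receptor of FGF15, by 0.41 ± 0.12 (adjusted p = 0.0253), neither past the threshold with the term.

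Of 7 detoxification genes, 2 rose and 1 fell on average, against 20.5% of all genes. Cyp2b10 rose by 4.04 ± 0.28 (adjusted p = 3.78e-08) and Cyp3a13 by 1.07 ± 0.15 (adjusted p = 9.2e-05), and both passed in knockout and overexpression liver and with the sex chromosome term. Sult2a1, a bile acid sulfotransferase, fell by 2.97 ± 0.58 (adjusted p = 0.00161), but its level was 23.1 to 108 CPM in the 5 libraries with Xist and 0 to 11 CPM in the other 13, and the change with the term was -0.04 ± 0.55.

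**Figure D5:**
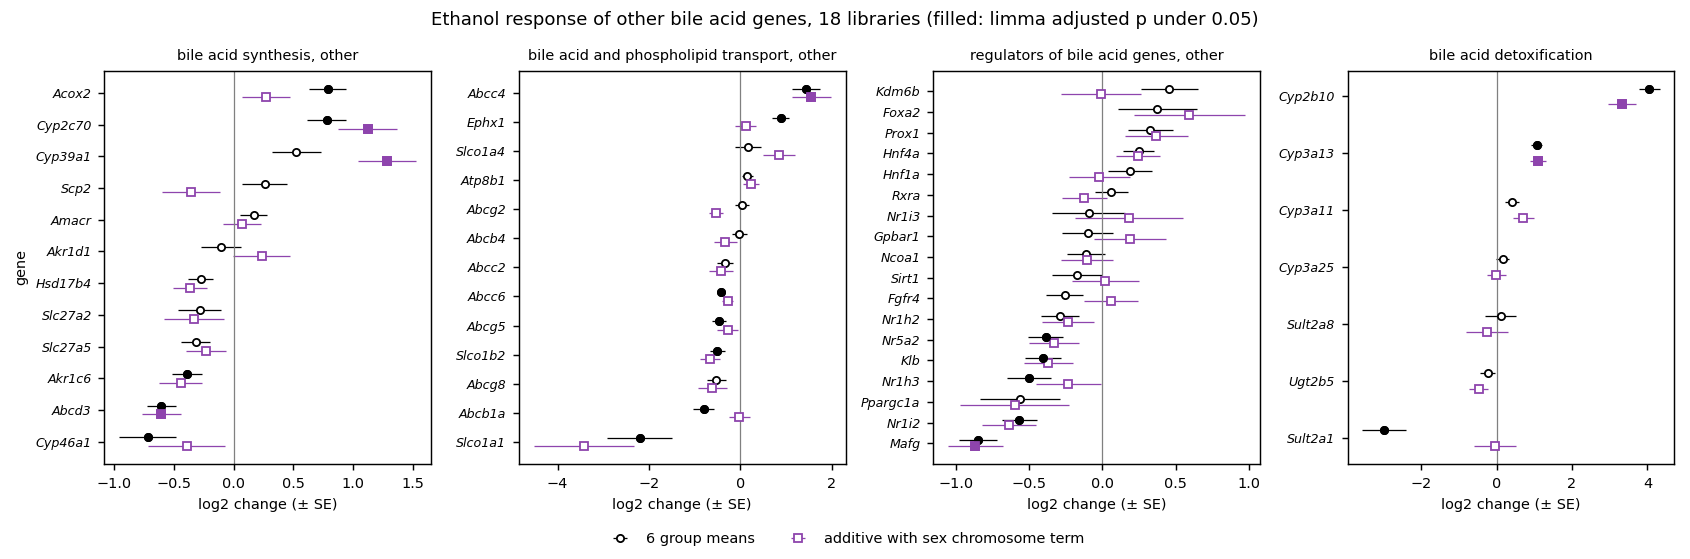
Log2 change with ethanol ± SE of the other synthesis, transport, regulator and detoxification genes, from 6 group means over 18 libraries (circles) and from the fit with a sex chromosome term and no interactions (squares). Filled symbols have a limma adjusted p under 0.05. Cyp2c70, Abcd3, Abcc4, Mafg, Cyp2b10 and Cyp3a13 are filled in both fits, and Sult2a1 moves from -2.97 to -0.04.

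The plot of other pathway genes shows some changes near equal in both fits and others past the threshold in 1 of them.

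Across the 18 libraries the genes most like a member were described by Pearson r of log2(CPM + 1) among 8456 genes, over libraries that share diet, genotype and sex chromosome pattern. Cyp7a1 was most like Cyp2d13 (r = 0.86), Cyp8b1 most like Cyp2f2 (0.77), Mgst1 (0.75) and Aldh1a1 (0.75), and Cyp7b1 most like Bmp7 (0.80), Cyp2d9 (0.80) and Mup20 (0.79). Cyp2d9 ran from 70.8 to 2328 CPM over the libraries. Nr0b2 was most like Shank2 (0.86), Trak1 (0.86) and H2-Aa (0.83), Abcb11 most like Irak2 (0.82), and Abcc3 most like Herc4 (0.89), Arel1 (0.87) and B3gat3 (0.87). Among the 10 genes the highest r were those of Baat with Cyp7b1 (0.73) and with Abcc3 (0.71), and the lowest was that of Abcc3 with Slc10a1 (-0.57, and -0.72 for deviations from the group means). The r of Nr0b2 with Cyp7a1 was 0.20 over the libraries and -0.47 for deviations from the group means.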

How the data were processed

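Liver RNA of 18 libraries was read with an Ion AmpliSeq mouse transcriptome panel, per the labels' protocols. The authors deposited a table of CPM, scaled to each library's total, and per-library files of log2(RPM + 1), per the file headers; the files differ by at most 2e-06. The aligner is not given in the sources used here, nor is the build. Multiplied by library totals, 100.0% of the CPM values lay within 0.02 of whole reads, and counts were recovered. No column was left out (0 unused).

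Genes with at least 1 CPM in 3 libraries (11720) were fitted as log2(CPM + 1) with 1 mean per group in limma 3.58.1 under R 4.3.3, with a trended eBayes prior. The 11 contrasts were tested two-sided, with Benjamini-Hochberg adjustment over all genes within a contrast and a threshold of 0.05. The quasi-likelihood test of edgeR 4.0.16 on these counts called 285, 1264 and 134 genes for ethanol in control, knockout and overexpression, where limma called 316, 1160 and 135. The pipeline was tested on simulated data.

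The 10 genes are given in every comparison. From the other lists, at most the 4 called genes with the smallest adjusted p per list and comparison are named. The genes, lists and tests were chosen with earlier results of these data known. Hsd3b7, Acnat1, Acnat2, Slc51b, Ugt1a1, Gsta1, Tf and Serpina1a were not analysed here. The promoter motifs, and the range of Sult2a1 by sex chromosome pattern, were chosen after values were seen. Of 45 library pairs with the same replicate number, 6 had correlated deviations over 0.1 (median 0.0287). Of 90 pairs with different numbers, 8 did (median -0.00663). The numbers were not used to pair libraries in the main fits, and whether they pair samples was not tested. Alternatives changed the filter, the pseudocount, the scaling (TMM or quantile), the library weights, blocks (replicate number or barcode range), the groups compared alone, a sex chromosome term, leaving out each library, and, chosen after seeing the data, the fits with that term without interactions and with Ddx3y libraries only, and results without pair-fed overexpression replicate 1.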

Additional observations from a re-analysis of the deposited data

Results flagged for a closer look

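Cyp7b1 responded to ethanol differently in overexpression and knockout liver. The response in overexpression minus that in knockout liver was -2.19 ± 0.51 on the log2 scale (limma adjusted p = 0.0441, where 1.05% of all genes passed), a comparison chosen after the data had been seen. Without pair-fed overexpression replicate 1 it was -2.11 ± 0.56 (adjusted p = 0.105). All 3 ethanol-fed knockouts (58.8 to 66.1 CPM) lay above the pair-fed ones (16.0 to 33.4 CPM), while overexpression libraries were at 50.1 to 124 CPM pair-fed and 42.5 to 56.7 CPM ethanol-fed. The pair-fed knockouts had Xist above Ddx3y and the other libraries of this comparison did not. With a term for that pattern added to the group means, the difference was -0.91 ± 0.65. That term rests on pair-fed control replicate 1 against replicates 2 and 3, the only group with both patterns.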

How the results depend on the processing

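Counts of the 10 genes called by YAP state, and by the interactions of ethanol with knockout and with overexpression against control, stayed at 0 in all alternatives run. For ethanol in control liver the count of 0 became 1 with a pseudocount of 0.1 (Nr0b2), 2 with array weights (Cyp7a1 and Abcc3), 1 with the groups compared alone (Cyp7a1), and 0 to 1 on leaving out a library. For ethanol in knockout liver the count of 2 became 0 with the sex chromosome term, 3 with quantile normalization and with array weights (Baat added, adjusted p = 0.0444 and 0.0192), and 1 to 2 on leaving out a library. For ethanol in overexpression liver the count of 1 became 0 with no filter on low values, TMM factors, quantile normalization and edgeR, and 0 to 1 on leaving out a library. The averaged count of 3 became 0 with the sex chromosome term, 1 in the fit with that term and no interactions, and 2 to 4 on leaving out a library. With TMM factors and quantile normalization it stayed at 3, but Cyp7a1 left (adjusted p = 0.0600 and 0.0586) and Abcc3 entered (0.0401 and 0.0351), and edgeR called 4 with Abcc3 (0.0286). The averaged call of Cyp7a1 was also lost with the barcode range as a block (limma adjusted p = 0.0614) and with no filter on low values. The averaged change of Cyp7b1, 0.10, reversed to -0.91 in control and overexpression libraries with Ddx3y above Xist. Why these values moved was not tested. The sex chromosome term, where it was added to the group means, rests on pair-fed control replicate 1 against replicates 2 and 3. With the replicate number as a block the averaged count was 2, with Cyp7a1 not called (adjusted p = 0.0582), and the block changed no other call of the 10 genes. Whether the numbers pair the libraries was not tested. No scaling moved the median of all genes by over 0.1 (log2). In knockout liver the fit to Ddx3y libraries alone was not run, since no pair-fed knockout has that pattern. With 3 libraries a group, a p over the threshold does not show that levels were equal.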
